A study of Homo sapiens with 3 samples.

Results

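Regulated exocytosis is the release of stored vesicle content on a signal, and 53 genes of its machinery were described here out of 58302 gene identifiers counted in each library. They were taken by symbol: small GTPases of the RAB3, RAB27, RAB26 and RAB37 types, synaptotagmins and synaptotagmin-like proteins, SNARE proteins and their SM partners, priming factors, complexins and a pair of vesicle glycoproteins. All 53 were found in the count files. RNA came from 3 libraries of C4-2, an established human line of prostate adenocarcinoma cells derived from LNCaP, labelled wild type and carrying no treatment in the labels. The wider study set adenocarcinoma cells beside neuroendocrine cells and depleted neuropilin-2 in the latter. Those other samples were not analysed here, so there was 1 group and no comparison between conditions. The labels do not say whether the 3 replicates were separate cultures, so the spread between them may be technical.

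In this machinery a RAB GTPase brings a vesicle to the plasma membrane, priming factors make it ready, and SNARE proteins on the vesicle (VAMP) and on the target membrane (syntaxin and SNAP) zip together to fuse the membranes. Some synaptotagmins bind calcium and trigger the fusion, and complexins hold the assembled SNAREs. Neurons and neuroendocrine cells use 1 set of paralogs (such as SNAP25, STX1A, UNC13A and CADPS), and epithelial and most other cells use another (such as SNAP23, STX3 and VAMP8). From such textbook knowledge, 22 members were classed as neuronal, 19 as epithelial or broad, and 12 as mixed because they serve both kinds of cell.

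The libraries held 47513470 to 51200272 reads assigned to genes. Levels of different genes are given as TPM, transcript level per exon length scaled to an equal total in each library, as mean ± SD over n = 3 libraries. Detection required 10 or more reads in each of the 3 libraries. Among genes with 1 to 20 reads, the count was even in 75.1% to 81.6% of genes in a library, so the mates of a read pair were mostly counted as 2 reads, and the limit that a count of 0 allows was set at 6 reads (3 fragments), or 0.126 CPM in the smallest library. Such limits cover counting error only. Markers of the labelled cell type were high: all 7 prostate luminal markers read here, KLK3 the highest, reached 1 TPM, with a summed level of 3174 to 3205 TPM. Of 8 neuroendocrine markers 5 were detected and 1 (CHGA) reached 1 TPM, with a summed level of 3.95 to 5.12 TPM and NEUROD1 at 0 reads. The 4 blood markers summed to 0.618 to 1.20 TPM, and CD3E had 0 reads. Fibroblast and endothelial markers summed to 9.82 to 10.7 TPM, of which COL1A1 made up 10.2 TPM (mean). Of 3 basal markers KRT14 was detected at 1.01 ± 0.121 TPM, and KRT5 and TP63 had 0 reads.

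Of the 53 members, 44 were detected (83% of them, where 71.8% of all 19708 protein-coding genes were), and 33 reached a mean of 1 TPM, where 62.7% of protein-coding genes did. The 9 members that were not detected were RAB3C, SYT5, SYT8, SYT11, SYT13, VAMP5, SNAP25, CADPS and RIMS2. Another 11 were detected below 1 TPM. Levels ran from 0 reads for SYT8 and CADPS to 202 ± 6.25 TPM for RAB3D. Of the 53 members 23 lay at 10 TPM or more, where 8462 of the 19708 protein-coding genes did. The median member lay at 4.43 ± 0.241 TPM, beside 5.41 ± 0.128 TPM for all protein-coding genes. In bulk RNA, a low level in every cell and a higher level in few cells cannot be told apart.

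**Figure D1:**
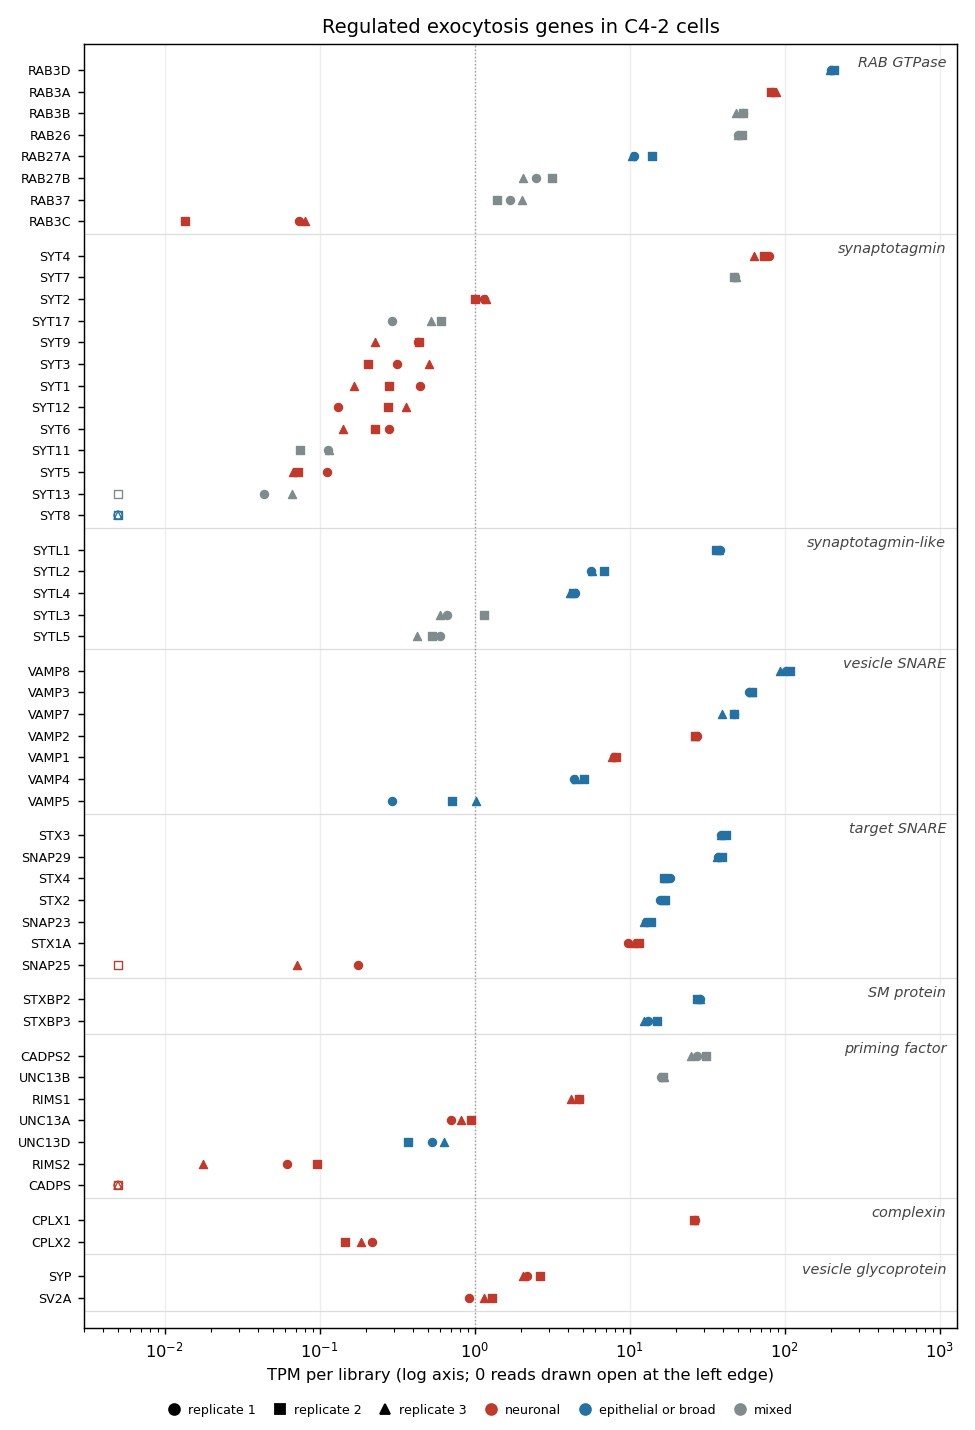
TPM of each of the 53 members in each of the 3 C4-2 libraries on a log axis, grouped by family and coloured by class, with 0 reads drawn open at the left edge and a dotted line at 1 TPM. RAB3D is highest at 197 to 209 TPM, the target SNAREs show every blue epithelial or broad gene to the right of the red neuronal ones, and RAB3A, SYT4 and CPLX1 are red points far to the right.

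The RAB3 GTPases, which dock secretory vesicles, were led by the form known from exocrine glands. RAB3D had 200.1, 209 and 197 TPM in replicates 1, 2 and 3. RAB3A, the main form in neurons, had 82.5, 81.8 and 87.6 TPM, and RAB3B, known from pituitary and epithelial cells, had 53.5, 53.8 and 48.7 TPM. RAB3C, a second neuronal form, had 12, 2 and 13 reads, or 0.0560 ± 0.0370 TPM, and was not detected. The ranges of RAB3D, RAB3A and RAB3B did not overlap, so their order was the same in every library. Of the summed RAB3 level of 338 ± 5.87 TPM, RAB3D made up 59.7 ± 0.806%, RAB3A 24.9 ± 1.31% and RAB3B 15.4 ± 0.688%. RAB3D is annotated on GRCh38 chromosome 19 (11322046 to 11346270, minus strand), as is RAB3A (18196784 to 18204074, minus strand), RAB3B on chromosome 1 (51907956 to 51990764, minus strand) and RAB3C on chromosome 5 (58582221 to 58859394, plus strand). RAB3D shares 24.9% of its exon bases with other genes, and reads there were dropped by the counting: over its unshared exon bases it lay at 256 TPM.

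The sequence just before the RefSeq start of each RAB3 gene is shown because these close paralogs differ so much in level. Each line holds 150 bases on the gene's own strand, 5′ to 3′, from RefSeq on GRCh38.p14, ending at the last base that no annotated exon covers, and capitals mark CG dinucleotides.
RAB3D: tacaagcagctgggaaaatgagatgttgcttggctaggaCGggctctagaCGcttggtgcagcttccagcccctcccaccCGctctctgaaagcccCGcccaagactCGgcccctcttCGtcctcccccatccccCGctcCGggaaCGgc
RAB3A: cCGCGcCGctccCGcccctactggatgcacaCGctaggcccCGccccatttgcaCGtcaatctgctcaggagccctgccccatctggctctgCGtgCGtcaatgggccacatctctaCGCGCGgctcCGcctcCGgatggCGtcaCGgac
RAB3B: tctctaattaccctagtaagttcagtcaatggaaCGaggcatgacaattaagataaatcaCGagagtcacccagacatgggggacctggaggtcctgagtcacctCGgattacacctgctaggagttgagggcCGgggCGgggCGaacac
RAB3C: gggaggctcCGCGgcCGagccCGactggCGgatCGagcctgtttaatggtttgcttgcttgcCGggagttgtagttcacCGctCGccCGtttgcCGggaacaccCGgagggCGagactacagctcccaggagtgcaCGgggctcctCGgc
These stretches lie at chr19:11339669-11339818 for RAB3D, chr19:18204075-18204224 for RAB3A, chr1:51990765-51990914 for RAB3B (all minus strand) and chr5:58582890-58583039 for RAB3C (plus strand). The RefSeq start used for each RAB3 gene lies inside its gene span in the count files, which begins further upstream. For RAB3D and RAB3C the printed stretch lies inside that span too. The stretches hold 9, 16, 6 and 15 CG dinucleotides in that order. They end 11, 32, 64 and 35 bases before the start, so they do not cover the same part of each promoter. The whole windows, from 250 bases before to 50 after the start, hold 18, 30, 15 and 23. In both counts RAB3B, at 52.0 TPM, had the fewest, and the near-silent RAB3C lay between RAB3D and RAB3A. Whether CG content bears on level was not tested.

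RAB27 GTPases, which carry secretory granules and exosome-forming endosomes to the membrane, were lower than RAB3D, RAB3A and RAB3B. RAB27A had 10.6, 13.8 and 10.3 TPM, and RAB27B, its paralog in platelets, glands and neurons, had 2.47, 3.17 and 2.05 TPM. Both were highest in replicate 2 and lowest in replicate 3. RAB27A made up 82.0 ± 1.26% of their sum. RAB26, a GTPase of exocrine granules, lay at 51.0 ± 1.74 TPM, as high as RAB3B within their spread, and RAB37, known from mast cell granules, at 1.70 ± 0.324 TPM.

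Synaptotagmin-like proteins bind RAB27 and tether the vesicle, and all 5 were detected. SYTL1, the form of epithelial and blood cells also called Slp1, had 37.9, 35.8 and 37.5 TPM and made up 76.1 ± 2.09% of the family. SYTL2 followed at 6.05 ± 0.668 TPM and SYTL4, or granuphilin, at 4.27 ± 0.157 TPM. SYTL3 (0.800 ± 0.299 TPM) and SYTL5 (0.517 ± 0.0865 TPM) lay below 1 TPM. SYTL4 shares 17.5% of its exon bases with a gene on the other strand.

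Of the 13 synaptotagmins, a family that includes calcium sensors of fusion, only SYT4, SYT7 and SYT2 reached 1 TPM. SYT4, a form of neurons and neuroendocrine cells, had 5877, 5041 and 4705 reads, or 78.9, 73.8 and 63.5 TPM. SYT7, a slow, high-affinity sensor found in endocrine and many other cells, had 48.0, 46.9 and 48.1 TPM. SYT4 made up 58.5 ± 2.86% and SYT7 38.9 ± 2.65% of the summed synaptotagmin level of 123 ± 7.61 TPM. SYT2, the fast sensor of hindbrain and motor synapses, lay at 1.12 ± 0.0926 TPM, and 27.2% of its exon bases are shared with a gene on the other strand. SYT4 is annotated on chromosome 18 (43267878 to 43277650, minus strand) and SYT7 on chromosome 11 (61515313 to 61581148, minus strand).

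The remaining synaptotagmins were near the limit of counting. SYT1, the fast sensor of forebrain synapses, had 48, 28 and 18 reads (0.295 ± 0.138 TPM). SYT3, SYT6, SYT9, SYT12 and SYT17 were detected between 0.217 and 0.473 TPM. SYT5, a form of dense-core vesicles, had 10, 6 and 6 reads, SYT11 10, 6 and 10, and SYT13 4, 0 and 6. SYT8, the 1 synaptotagmin classed as epithelial or broad, had no read in any library, and the limit of 6 reads equals 0.0828 TPM in replicate 2.

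Vesicle SNAREs were led by the forms of epithelial and general secretion. VAMP8, or endobrevin, which serves exocrine granules, had 102, 107 and 93.5 TPM and made up 41.0 ± 1.01% of the VAMP sum. VAMP3, or cellubrevin, of recycling endosomes, had 59.1, 61.1 and 61.2 TPM, and VAMP7, of lysosomal and apical secretion, 47.3, 46.9 and 39.6 TPM. The synaptic vesicle form VAMP2, or synaptobrevin, had 27.3, 26.3 and 26.2 TPM, and its paralog VAMP1 had 7.92, 8.16 and 7.68 TPM. VAMP4, of the trans-Golgi, lay at 4.65 ± 0.366 TPM. VAMP5, a form of muscle cells, had 4, 9 and 14 reads and was not detected. The neuronal pair VAMP1 and VAMP2 made up 14.1 ± 0.523% of the sum.

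Target membrane SNAREs included a neuronal syntaxin but almost no neuronal SNAP. STX3, the apical syntaxin of epithelia, had 38.6, 42.0 and 39.0 TPM. STX4 (17.2 ± 0.869 TPM), the basolateral form, and STX2 (16.5 ± 0.638 TPM) did not differ beyond their spread. STX1A, the syntaxin of synapses and endocrine granules, had 9.74, 11.4 and 10.7 TPM and made up 12.6 ± 0.676% of the syntaxins. STX1A shares 17.9% of its exon bases with a gene on the other strand and lay at 12.3 TPM over the unshared bases. SNAP29, of internal membranes, had 37.1, 39.4 and 36.7 TPM, and SNAP23, the partner of syntaxins outside neurons, had 12.7, 13.6 and 12.3 TPM. SNAP25, the neuronal partner, had 10, 0 and 4 reads, or 0.167 ± 0.178% of the family. Both lie on the plus strand, SNAP25 on chromosome 20 (10218830 to 10307418) and SNAP23 on chromosome 15 (42491233 to 42545356).

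Both SM proteins among the members, which clasp syntaxins, were present: STXBP2, or Munc18-2, of epithelia and blood cells, at 28.0 ± 0.747 TPM and the broad form STXBP3 at 13.5 ± 1.38 TPM. STXBP2 shares 18.2% of its exon bases with other genes.

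Among priming factors CADPS2 and UNC13B, both classed as mixed, were the abundant genes. CADPS, the neural and endocrine priming factor CAPS1, had 0 reads in every library. The limit of 6 reads equals at most 0.0266 TPM, and CADPS2, its paralog CAPS2, had 27.0, 31.1 and 25.0 TPM, at least 1019-fold higher in each library. UNC13B, a broad Munc13 form, had 15.8, 16.5 and 16.7 TPM and made up 92.5 ± 0.387% of the UNC13 sum. UNC13A, the synaptic form, had 0.703, 0.952 and 0.814 TPM, and UNC13D, the form of cytotoxic lymphocytes and of lung and other epithelia, 0.530, 0.369 and 0.634 TPM. RIMS1, a scaffold of the synaptic active zone, had 4.71, 4.68 and 4.20 TPM, whereas its paralog RIMS2 had 14, 20 and 4 reads and was not detected. CADPS is annotated on chromosome 3 (62398346 to 62875389, minus strand) and CADPS2 on chromosome 7 (122318425 to 122886759, minus strand).

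Complexins and vesicle glycoproteins are mainly neuronal, and 1 of their 4 genes was abundant. CPLX1 had 26.3, 25.9 and 26.2 TPM, close to VAMP2, and made up 99.3 ± 0.130% of the complexin pair. CPLX2 had 26, 16 and 22 reads (0.183 ± 0.0359 TPM). SYP, or synaptophysin, a diagnostic marker of neuroendocrine tumours, had 2.18, 2.64 and 2.04 TPM, and the vesicle transporter-like protein gene SV2A had 0.914, 1.29 and 1.14 TPM.

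**Figure D2:**
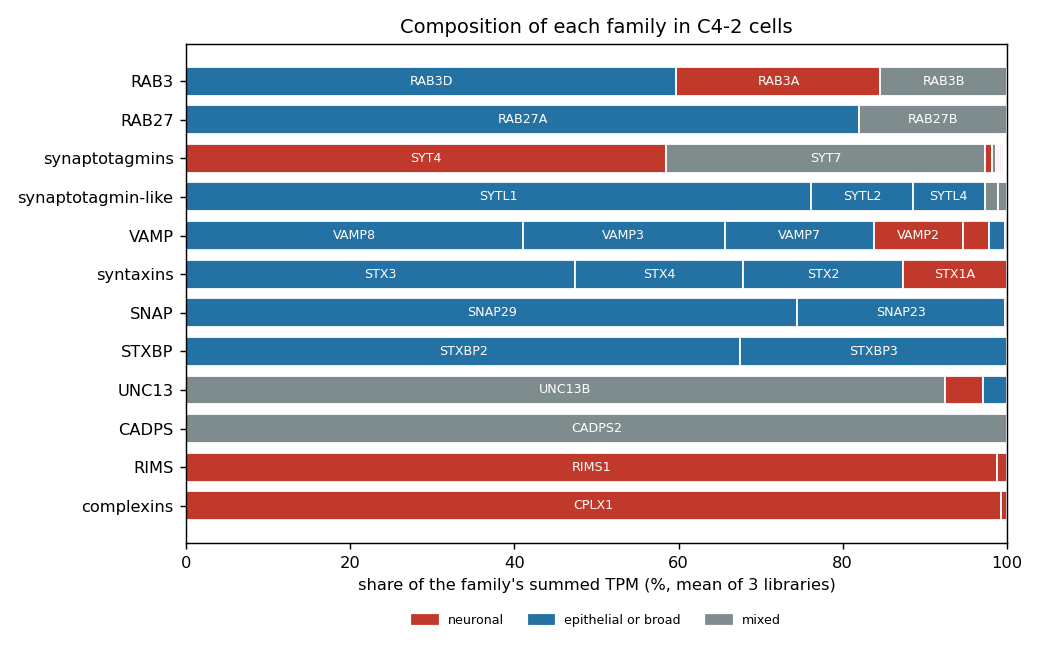
Share of each family's summed TPM taken by each gene (horizontal axis, percent, mean of 3 libraries), coloured by class, with names on shares above 8%. Neuronal genes make up 60.6% of the synaptotagmin sum through SYT4, 24.9% of RAB3, 14.1% of VAMP, 12.6% of the syntaxins and 0.167% of the SNAP genes.

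Set side by side, the epithelial or broad class had a far higher median level than the neuronal class. The classes came from textbook knowledge but were set with earlier results of these data known. Of 22 neuronal members 17 were detected (77.3%), 10 reached 1 TPM and 5 reached 10 TPM. Of 19 epithelial or broad members 17 were detected (89.5%), 16 reached 1 TPM and 13 reached 10 TPM. Of all 19708 protein-coding genes 14153 were detected (71.8%), 12366 reached 1 TPM (62.7%) and 8462 reached 10 TPM. The share of neuronal members detected was thus near that of all protein-coding genes. Medians were 0.642 ± 0.0639 TPM for the neuronal, 16.3 ± 0.504 for the epithelial or broad and 2.13 ± 0.129 for the mixed class. The classes differ in family make-up. Of the 13 synaptotagmins, a family with a median of 0.265 TPM, 8 are neuronal members, and SYT8 alone is epithelial or broad. How far this make-up accounts for the class difference was not tested. On the log2(TPM + 0.1) scale, which understates the distance of low genes, the difference of the medians, neuronal minus epithelial or broad, was −4.59, −4.47 and −4.49 in replicates 1, 2 and 3, and its mean was −4.52 ± 0.0635 (SD, n = 3; exact two-sided sign-flip permutation p = 0.25, the smallest that 3 libraries allow, so no such test could pass 0.05). It was −3.41 with a pseudocount of 1 and −3.74 among detected members only. Yet the neuronal class was not silent as a whole: its members made up 22.2 ± 0.532% of the summed TPM of all 53 genes, and 4 of them, RAB3A, SYT4, VAMP2 and CPLX1, held 87.3 ± 0.611% of that neuronal sum. Those 4 were singled out after their values were seen.

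**Figure D3:**
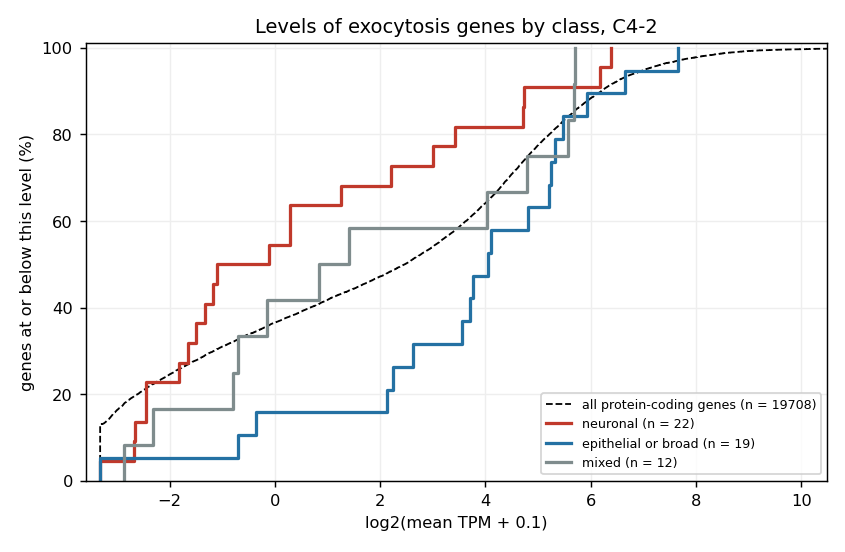
Cumulative share of genes (vertical axis, percent) at or below a given log2(mean TPM + 0.1) (horizontal axis) for the 22 neuronal, 19 epithelial or broad and 12 mixed members and, dashed, for all 19708 protein-coding genes. The neuronal curve lies left of the protein-coding curve over most of its range and the epithelial or broad curve right of it, and the curves come together at the top because RAB3A and SYT4 are among the highest members.

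Paralogs that take the same place in the machinery were compared within each library in 12 pairs, the gene more tied to neurons first. In 11 pairs that gene was the lower in 3 of 3 libraries, and each pair had an exact sign-flip p of 0.25 (0.25 after Benjamini-Hochberg adjustment over the 12 pairs). STX1A, VAMP2, VAMP8 and UNC13A each stand in more than 1 pair, and RAB27B, SYT7, UNC13B and CADPS2 are classed as mixed. The list does not hold every combination within a family. Some left out go the other way, such as SYT4 (72.1 TPM) above SYT7 (47.7 TPM) and VAMP2 (26.6 TPM) above VAMP4 (4.65 TPM). The widest gaps, in log2(TPM + 0.1), were −6.98 ± 0.514 for SYT1 minus SYT7, −6.27 ± 0.791 for SNAP25 minus SNAP23 and −4.16 ± 0.168 for UNC13A minus UNC13B, besides CADPS against CADPS2, where CADPS had no reads. SNAP25 had 0 reads in replicate 2, and its difference rested on the pseudocount: it was −3.68 with a pseudocount of 1 and −7.91 with 0.01. The order of the widest gaps moved with the pseudocount too, since SYT1 minus SYT7 was −7.39 with 0.01, and with 1 UNC13A minus UNC13B was −3.25 and VAMP1 minus VAMP8 −3.51. Narrower gaps separated VAMP1 from VAMP8 (−3.65 ± 0.0582), RAB27B from RAB27A (−2.14 ± 0.116), VAMP2 from VAMP8 (−1.92 ± 0.0993) and STX1A from STX3 (−1.90 ± 0.0654). The closest were RAB3A to RAB3D (−1.27 ± 0.0934), VAMP2 to VAMP3 (−1.18 ± 0.0614) and STX1A to STX4 (−0.69 ± 0.183). UNC13A minus UNC13D, at 0.61 ± 0.482, was the 1 pair in the other direction, in 3 of 3 libraries, with both genes below 1 TPM.

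**Figure D4:**
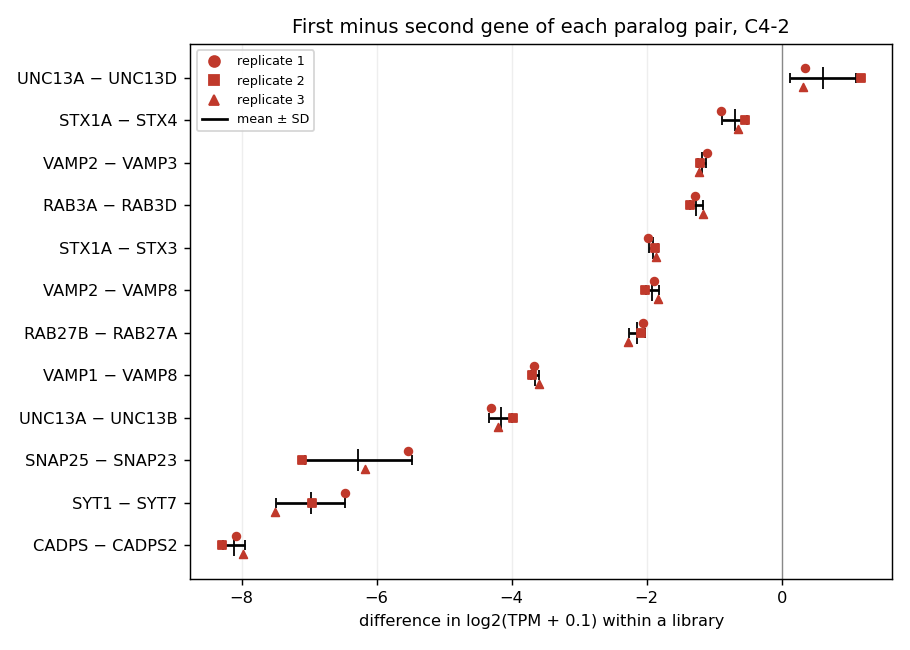
Difference in log2(TPM + 0.1) of the first minus the second gene of 12 paralog pairs (horizontal axis), with 1 point for each library and the mean ± SD in black. Points left of 0 mean that the gene more tied to neurons is lower: 11 pairs lie there in all 3 libraries, and UNC13A minus UNC13D lies right of 0.

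Several members differed between the 3 replicates by more than counting noise. A chi-square test of the 3 counts against library sizes, adjusted over all 21039 detected genes, called 21 of the 44 detected members (47.7%), where it called 46.1% of all detected genes, so the members' share was near the background. That test takes reads as independent. With its statistic divided by 2 for mates counted apart, 8 members (18.2%) were called, where 17.6% of detected genes were: SYT4, RAB27A, CADPS2, RAB3B, VAMP7, RAB27B, SYT12 and RAB3A. The count of 21 fell to 8 without replicate 2, 11 without replicate 3 and 18 without replicate 1.

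The 8 genes did not move together. SYT4 was highest in replicate 1 and 1.21-fold lower in replicate 3 after scaling for library size (adjusted p = 3.94e-09 with the statistic divided by 2, chi-square test). RAB27A was highest in replicate 2, by 1.28-fold over replicate 3 (adjusted p = 0.000339), and so were CADPS2 (1.18-fold, adjusted p = 0.000414) and RAB27B (1.47-fold, adjusted p = 0.0212). RAB3B and VAMP7 were lowest in replicate 3 (1.07-fold and 1.16-fold, adjusted p = 0.01 and 0.0203). SYT12, with 24, 46 and 65 reads, and RAB3A, at 1.13-fold, were highest in replicate 3 (adjusted p = 0.0419 and 0.0474). Under the undivided test, leaving out replicate 2 ended the calls of RAB27A, RAB27B and CADPS2 (adjusted p = 0.958, 0.156 and 0.158), leaving out replicate 3 those of RAB3A, RAB3B and VAMP7 (0.436, 0.318 and 0.483), and leaving out replicate 1 that of SYT12 (0.208). With the statistic divided by 2 in these leave-one-out tests, a combination chosen after seeing the data, the same 7 calls were lost, and also those of RAB3B and VAMP7 without replicate 1 (adjusted p = 0.0551 and 0.0622), RAB3A without replicate 2 (0.189), and RAB27B and SYT12 without replicate 3 (0.221 and 0.228). SYT4 stayed under 0.05 with each replicate left out in both tests.

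**Figure D5:**
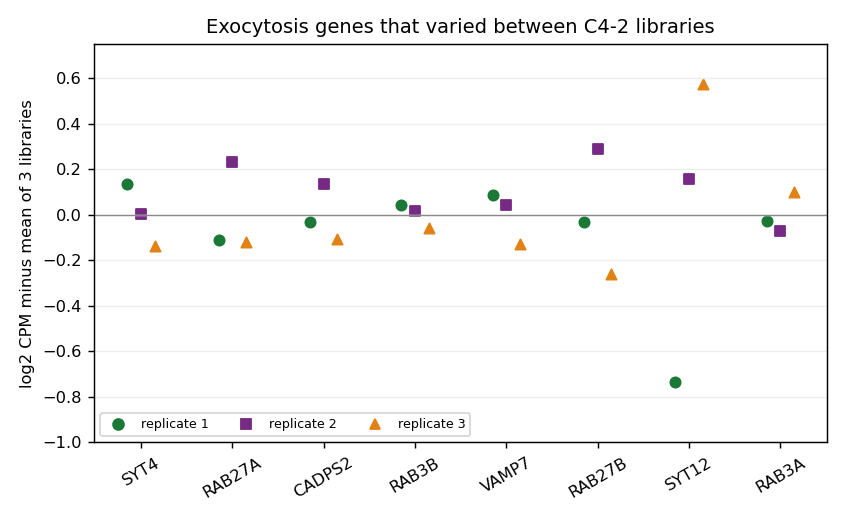
Log2 CPM of each library minus the mean of the 3 libraries (vertical axis) for the 8 members called as varying with the statistic divided by 2, ordered by adjusted p from SYT4 to RAB3A. Purple squares (replicate 2) are highest for RAB27A, CADPS2 and RAB27B, and orange triangles (replicate 3) are highest for SYT12 and RAB3A.

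Genes that serve the same pathway outside the members, 59 in 7 lists, were mostly present. Of them 53 (89.8%) were detected, where 71.8% of all protein-coding genes were, and 47 reached 1 TPM, where 62.7% did. All 4 genes of SNARE recycling, in which the ATPase NSF pulls spent SNAREs apart with SNAP adaptors, were detected, NSF at 43.7 ± 1.67 and NAPG at 24.4 ± 2.61 TPM. All 7 regulators of RAB3 and RAB27 were detected, with the RAB-GAP gene TBC1D10B at 55.9 ± 2.14 TPM and the RAB3 exchange factor gene MADD at 47.8 ± 0.798 TPM. Of 7 RAB effectors 6 were detected, with the RAB27 effector gene MLPH at 52.6 ± 2.15 TPM and the myosin gene MYO5C at 39.7 ± 1.85 TPM, whereas RPH3A, or rabphilin, the neuronal RAB3 effector, had 0 reads. All 9 subunits of the exocyst, a tether of general secretion, lay between 6.10 and 35.0 TPM, EXOC4 and EXOC7 the highest.

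Active zone genes, which build the release site of synapses, were detected in 8 of 9 cases (88.9%), beside 71.8% of all protein-coding genes, and 7 reached 1 TPM. The liprin genes PPFIA2 and PPFIA3 led at 69.2 ± 1.96 and 30.5 ± 1.05 TPM, and 20.5% of the exon bases of PPFIA2 are shared with another gene. PPFIA1, ERC1 and PPFIA4 followed at 28.3, 16.9 and 5.51 TPM. BSN and PCLO were lower, at 2.47 and 1.02 TPM. ERC2 lay at 0.238 TPM, and RIMBP2, with 0, 4 and 6 reads, was not detected. Of 14 other vesicle proteins 12 were detected (85.7%, beside the same 71.8%), and 9 reached 1 TPM. The list was led by SYNGR2, the broad synaptogyrin, at 367 ± 9.29 TPM and the carrier membrane protein gene SCAMP3 at 111 ± 4.71 TPM. SYN1, SYN2 and SV2C were detected at 0.228, 0.297 and 0.251 TPM. SYN3 was not detected, and SV2B had 0 reads. Of 9 other fusion regulators 7 were detected (77.8%), near the 71.8% of all protein-coding genes. SNAPIN lay at 78.3 ± 5.18 TPM and STXBP5, or tomosyn, at 21.4 ± 1.77 TPM. CPLX3 and CPLX4 had 0 reads, and 99.7% of the exon bases of CPLX3 are shared with another gene, so its reads could hardly be counted.

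Promoter sequence was searched for the pieces of RE1, the element to which the repressor REST binds at neuronal genes outside neurons, because neuronal members here span silent to abundant. RefSeq windows of 250 bases before to 50 after each start were found for 40 of 53 members, with 63 starts. The others were RAB26, RAB37, SYT7, SYT8, SYT12, SYT13, SYT17, SYTL2, SNAP25, UNC13D, CADPS2, RIMS2 and CPLX1. The left piece CAGCACC, on either strand, stood in 6 of the 63 windows (9.52%), beside 7.75% of all 35116 promoter windows, and the right piece GGACAG in 13 (20.6%), beside 20.5%. By class, the left piece stood in 5 of 27 windows of neuronal members and 1 of 25 of epithelial or broad members. Counted by gene, it stood in 4 of 18 and 1 of 16, since SYT3 had more than 1 such window. VAMP7 was counted on both X and Y. The difference between the classes was not tested. Windows with the left piece, 1 for each of the 5 genes, are shown as 30 bases on the gene's strand, 5′ to 3′, with the left or right piece, or its reverse complement, in capitals.
SYT4: gggaggggggcaGGTGCTGatttcagccct
RIMS1: gggatagagcgaGGTGCTGtgcacgttggc
UNC13A: aggcgCTGTCCgcgcccccGGTGCTGaacc
SYT3: tagggcgtagttGGTGCTGgatggatgttt
SNAP23: catttaaaccccCAGCACCgtgattggctc
Their positions are chr18:43277555-43277584 (SYT4, minus), chr6:71886325-71886354 (RIMS1, plus), chr19:17688338-17688367 (UNC13A, minus), chr19:50637921-50637950 (SYT3, minus) and chr15:42495536-42495565 (SNAP23, plus). Among the 40 members with a window, UNC13A was the 1 with both pieces in RE1 order, at most 20 bases apart. This was 1 of the 63 windows, beside 0.191% of all promoter windows. The genes with the left piece ran from 0.342 TPM (SYT3) and 0.823 TPM (UNC13A) to 4.53 TPM (RIMS1), 12.9 TPM (SNAP23) and 72.1 TPM (SYT4). The median window held 22 CG dinucleotides in detected members (57 windows) and 24 in members that were not detected (6 windows), beside 14 over all windows. A match of letters is not a bound site, and the windows without one say nothing of REST.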

How the data were processed

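Total RNA of 3 C4-2 replicates was depleted of ribosomal RNA and made into strand-specific libraries from 770 ng of input, per the labels' protocols. Per the submitters' processing notes, reads were trimmed with Trim Galore and aligned with STAR 2.7.0f to GRCh38. The authors deposited raw counts of reads per gene, made with featureCounts 1.6.3 on Ensembl release 90 exons and options that name only the annotation, output and threads, per the file headers. With those options strand is ignored, reads shared between genes are dropped and mates count separately. The deposited exon length per gene (other column of the files, per the file headers) was used for TPM, with all 58302 genes in the total.

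Symbols came from GENCODE release 44 (57532 identifiers matched). TMM library sizes came from edgeR 4.0.16 in R 4.3.3; other steps used Python 3.11.15, scipy 1.17.1 and matplotlib 3.10.9. Counts were tested by chi-square across libraries, Benjamini-Hochberg adjusted over detected genes (threshold 0.05), and the test was checked on simulated data. The replicates differed beyond counting noise in every pair (mean chi-square 5.27 to 10.3 per degree of freedom). That statistic was not divided by 2 for mates counted apart, and its median over genes was lower, at 1.93 to 2.54. Alternatives were the pseudocount, length, detection rule, class assignment, DESeq2 1.42.0 size factors, total counts and leaving out each replicate. Promoters were RefSeq, GRCh38.p14. Named genes were all members, and the 2 highest and those at 0 reads of each pathway list. The whole active zone list, and the other vesicle proteins below 1 TPM, were named as well. The members, classes and lists were chosen with earlier results of these data known. A marker and a promoter stretch are not reported here.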

Additional observations from a re-analysis of the deposited data

How the results depend on the processing

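All 12 pair differences and the class difference kept their direction under every alternative run, and no exact sign-flip test could pass 0.05 in this design. For the pairs most alternatives could not have changed it. A pseudocount never reverses the order of a pair, and each pair had the same sign in every library before any was left out. Only the changes of length scaling could have reversed a pair. The class difference ranged from −4.71 to −3.41. The count of detected members stayed within 1.5 times its value under 5 and 20 reads, 1 TPM and each replicate left out. The count of members varying between libraries moved most: from 21 to 8 with the statistic divided by 2. With 1 replicate left out it ran from 8 to 18, and with both changes, an alternative chosen after seeing the data, it was 6, 4 and 3 without replicates 1, 2 and 3. Without length scaling VAMP2 minus VAMP8 shrank to −0.20. Over unshared exon bases, 16 of 53 levels moved beyond 1 SD, by at most 1.31-fold (SYT2). Leaving small structural and mitochondrial RNA out of the total moved 43 levels beyond 1 SD, all by 1 common factor per library. Depth limits the members under 10 reads: a level of 0 allows up to 6 reads. No paired analysis was possible because there was 1 group. The planned comparison of protein sequences was not run.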
